A study of Mus musculus with 3 samples.

Results

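The 3987 sites described here were MYC peaks that POH1-Flag cells and vector cells had in common and that lay away from the ends of protein-coding genes. The sites were chosen by the peak calls of all 3 lists and by position. A site was a MYC peak of POH1-Flag cells on chromosomes 1 to 19 or X that shared at least 1 bp with a MYC peak of vector cells and none with a Flag peak. Its summit, the base of highest read pileup, lay more than 1 kb from both ends of every RefSeq protein-coding gene of GRCm38. The list of POH1-Flag cells held 22647 MYC peaks, of which 22241 were on these chromosomes and 14162 were far from gene ends. Of the far peaks 4783 met a vector peak, and 796 of those were left out because they also met a Flag peak. The sites were therefore 28.2% of the far MYC peaks and 17.6% of all MYC peaks of POH1-Flag cells, and they met 3954 vector peaks. Inside a protein-coding gene lay 2127 sites, and 1860 were intergenic.

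The cells were Pan02, derived from a ductal adenocarcinoma of the mouse pancreas. One group carried POH1-Flag stably and was profiled with an anti-Flag and with an anti-MYC antibody, and the other carried the vector and was profiled with the anti-MYC antibody. There was 1 library per group and no replicate, so differences between the cell lines have no measured replicate error, and the intervals given below cover counting error only. Whether a line was 1 clone, and at what level POH1-Flag was made, is not given in the sources used here. The lists held 2936 Flag, 12175 vector MYC and 22647 POH1-Flag MYC peaks. The genome-wide background in reads per kb put the read depth at 1.05, 1 and 1.06 relative to the vector library. The gene Psmd14 encodes POH1, a subunit of the proteasome that removes ubiquitin from its substrates, and the series title presents it as a regulator of MYC. In CUT&Tag, a transposase tethered to an antibody cuts and tags DNA around the target protein, and the tagged pieces are sequenced.

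MYC is a basic helix-loop-helix leucine zipper factor that binds DNA as a dimer with MAX, best at the E-box CACGTG, and its partners MNT and the MXD proteins compete for MAX. In cells with much MYC, it is found at most active promoters and also at enhancers, stretches far from promoters that are occupied by tissue factors such as AP-1 and TEAD proteins. Annotated genes often have several starts, so a summit far from both outer ends of a gene can still lie at a promoter inside it, or at the start of a noncoding gene. RNA polymerase III genes, such as those of tRNAs, are a further class of MYC-occupied loci outside protein-coding genes.

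A listed transcript start lay within 1 kb of the summit at 777 sites, 20.1% of the 3864 sites on chromosomes with listed starts. At 548 sites (14.2%, Wilson 95% interval 13.1 to 15.3%) it was the start of a protein-coding gene, and at 544 of these it was a start of the gene that held the site. At a further 229 sites (5.93%, 5.22 to 6.72%) it was the start of a long noncoding RNA (lncRNA) gene. Far MYC peaks that were in the POH1-Flag list alone had a coding start within 1 kb in 4.89% and a lncRNA start in 2.67%. The same shares were 1.5% and 1.28% for far MYC peaks of vector cells alone and 0 of 1178 and 0.424% for far Flag peaks without MYC. The rule did not use these starts, but it required a peak in both MYC lists, and such peaks were taller. The table of starts also lacked some genes on these chromosomes. Of 1461 inside sites without a listed start within 1 kb, 1122 had their host gene in it. Starts of the missing genes were not checked, so the shares may be too low.

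The starts come with 300-base RefSeq windows of GRCm38.p6, from 250 bases before to 50 bases after the start, and 337 windows held the summit of a site. Windows are printed for 4 of these sites because they show the E-box at starts that lie inside a gene or between genes. They are the 3 coding starts and the named lncRNA start of highest −log10 q whose window holds CACGTG, a choice made after their values were seen. Cops7a encodes a subunit of the COP9 signalosome, and its window is chr6:124965217-124965516 on the minus strand. Hif1a encodes the oxygen-regulated subunit of HIF-1, and its window is chr12:73907617-73907916 on the plus strand. Nadk encodes NAD kinase, with the window chr4:155563565-155563864 on the plus strand. Snhg15 is a noncoding host gene of small nucleolar RNAs, and its window, chr11:6528711-6529010 on the minus strand, is intergenic with Myo1g as the nearest coding gene. Capitals mark CACGTG.
Cops7a: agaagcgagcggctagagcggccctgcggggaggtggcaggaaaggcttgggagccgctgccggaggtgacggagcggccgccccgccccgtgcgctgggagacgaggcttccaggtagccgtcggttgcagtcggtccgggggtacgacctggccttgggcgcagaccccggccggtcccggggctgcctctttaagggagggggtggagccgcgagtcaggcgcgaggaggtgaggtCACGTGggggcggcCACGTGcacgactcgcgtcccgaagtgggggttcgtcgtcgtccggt
Hif1a: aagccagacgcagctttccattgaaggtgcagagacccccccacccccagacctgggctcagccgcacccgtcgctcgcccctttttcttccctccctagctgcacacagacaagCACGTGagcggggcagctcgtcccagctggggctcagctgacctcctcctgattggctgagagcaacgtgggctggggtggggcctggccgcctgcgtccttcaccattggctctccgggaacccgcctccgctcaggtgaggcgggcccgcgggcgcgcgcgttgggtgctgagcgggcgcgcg
Nadk: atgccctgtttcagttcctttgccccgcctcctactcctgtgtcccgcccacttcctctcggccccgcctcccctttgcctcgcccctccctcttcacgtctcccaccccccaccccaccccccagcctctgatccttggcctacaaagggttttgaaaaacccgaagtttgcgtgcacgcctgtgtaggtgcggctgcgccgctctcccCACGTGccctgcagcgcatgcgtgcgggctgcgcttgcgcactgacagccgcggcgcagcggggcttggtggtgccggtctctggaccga
Snhg15: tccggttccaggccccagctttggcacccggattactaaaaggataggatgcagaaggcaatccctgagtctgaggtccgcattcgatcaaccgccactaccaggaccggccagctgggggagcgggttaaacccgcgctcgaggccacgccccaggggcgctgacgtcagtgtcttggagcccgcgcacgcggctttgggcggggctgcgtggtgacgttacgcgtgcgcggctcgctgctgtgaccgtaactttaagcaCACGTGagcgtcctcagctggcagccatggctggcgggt

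At the Cops7a start the summit had 41 reads in vector cells and 54 in POH1-Flag cells, and its window held the E-box in 2 places. The Hif1a site had 31 and 46 reads, the Nadk site 37 and 56, and the Snhg15 site 47 and 60. After scaling by the genome-wide background of each library the ratios of POH1-Flag to vector cells were 1.35, 1.52, 1.55 and 1.31, and the counting intervals of all but Nadk include 1. Relative to the local background around each site, described with the pileups of all sites, the same 4 ratios were below 1, at 0.886, 0.984, 0.965 and 0.863. CACGTG, which reads the same on both strands, occurred in 49 of the 337 windows (14.5%, 11.2 to 18.7%). Windows that held a shared summit near a gene end had it in 14%, windows with a summit from the POH1-Flag list alone in 9.08%, windows that met no MYC peak in 5.34%, and all listed windows in 7.15%. Base composition moved with these shares, since the median GC was 64.3% in the 337 windows and 49.3% in those without a MYC peak. Among windows of at least 60% GC the shares were 15.4%, 14.2%, 9.65%, 9.13% and 10.8% in the same order. CACGCG, a related E-box searched on both strands, was in 24.3% of the 337 windows, 23.9% of the gene-end windows and 9.27% of all windows. Among windows of at least 60% GC these shares were 26.8%, 26.7% and 22.9%, close to each other.

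TGAGTCA, the element bound by AP-1 factors, was searched on both strands and occurred in 8.01% of the 337 windows (27 windows, 5.56 to 11.4%). Gene-end windows had it in 2.69% (2.13 to 3.39%) and all windows in 5.2%. Among windows under 60% GC it was in 17.6% (16 of 91, 11.1 to 26.7%), against 3.27% at gene ends, 8.15% for summits of POH1-Flag cells alone and 6.37% without a MYC peak. Windows of lncRNA starts carried most of this, with 11 of 41 (26.8%, 15.7 to 41.9%), against 5 of 50 (10%, 4.35 to 21.4%) at coding starts and 18.6% at lncRNA starts with a summit of POH1-Flag cells alone. The 246 windows of at least 60% GC had it in 4.47% (2.51 to 7.83%), against 2.49% at gene ends (1.88 to 3.29%). The TEAD element GGAATG, on both strands, was in 12.8%, against 10.4% at gene ends and 14.7% of all windows. A forkhead element, TGTTTAC, was in 1.78% against 3.65% of all windows. Windows with the AP-1 element are printed for a start of Lmna, the gene of lamin A and C, at chr3:88503303-88503602 on the minus strand, and for a lncRNA start inside Pam, a peptide-amidating enzyme gene, at chr1:97910853-97911152 on the plus strand. Capitals mark TGAGTCA or its reverse complement, and both windows were picked after their values were seen.
Lmna: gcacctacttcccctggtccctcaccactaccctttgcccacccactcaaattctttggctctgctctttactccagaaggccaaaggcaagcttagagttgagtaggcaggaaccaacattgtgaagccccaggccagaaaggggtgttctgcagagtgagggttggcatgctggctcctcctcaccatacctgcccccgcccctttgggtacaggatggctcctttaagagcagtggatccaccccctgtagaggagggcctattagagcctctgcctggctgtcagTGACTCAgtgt
Pam, lncRNA start: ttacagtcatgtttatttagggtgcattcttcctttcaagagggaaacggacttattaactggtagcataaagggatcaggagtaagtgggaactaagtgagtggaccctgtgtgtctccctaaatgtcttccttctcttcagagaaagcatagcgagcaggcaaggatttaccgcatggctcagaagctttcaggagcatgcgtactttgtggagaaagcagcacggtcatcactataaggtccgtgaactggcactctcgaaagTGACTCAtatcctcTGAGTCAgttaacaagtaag

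The Lmna site had 45 reads in vector cells and 62 in POH1-Flag cells, a ratio of 1.41 (0.945 to 2.12). The Pam site had 15 and 28 reads, a ratio of 1.91 (0.986 to 3.85). Both intervals include 1, and relative to the local background the ratios were 0.715 and 1.29.

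MiRNA hairpins lay within 1 kb of 16 sites, 0.401% of the sites. This share was 0.246% for far peaks of POH1-Flag cells alone, 0.0734% for those of vector cells alone and 0 of 1204 for far Flag peaks. It was 0.884% for shared sites near a gene end. From 4 of the 16 sites 5 mature sequences are printed because they belong to well-known miRNAs. They are from RefSeq, GRCm38.p6, with the seed, bases 2 to 8, in capitals.
mmu-let-7i-5p: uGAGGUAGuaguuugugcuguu
mmu-miR-210-3p: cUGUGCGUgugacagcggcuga
mmu-miR-193a-3p: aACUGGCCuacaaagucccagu
mmu-miR-29a-3p: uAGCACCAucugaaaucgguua
mmu-miR-29b-3p: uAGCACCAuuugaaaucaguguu

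The last 2, from the neighbouring hairpins of Mir29a and Mir29b-1, share the seed AGCACCA and lay 616 and 979 bp from 1 summit with 12 reads in vector cells and 21 in POH1-Flag cells. The other 3 each have a seed of their own. The summit 326 bp from let-7i, a let-7 miRNA, had 38 and 46 reads, a ratio of 1.24 (0.788 to 1.96). At miR-210, the hypoxia-induced miRNA, the summit was 485 bp from the hairpin and had 37 and 56 reads, a ratio of 1.55 (lower bound just above 1, upper bound 2.41). The summit 844 bp from miR-193a had 17 and 32 reads, a ratio of 1.93 (1.04 to 3.70). Over all 16 sites the median ratio was 1.36 and 13 were above 1, against 90.2% of all 3987 sites. Relative to the local background 5 of the 16 were above 1, against 2067 of the 3987.

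Sites inside genes made up 53.3% of the 3987 (51.8 to 54.9%). The sequence more than 1 kb from gene ends lay inside genes to 39.1%, and far MYC peaks of POH1-Flag cells alone did so in 47.0% (45.9 to 48.0%), those of vector cells alone in 40% (37.4 to 42.6%) and far Flag peaks without MYC in 34.1% (31.4 to 36.8%). The interval of the shared sites overlapped none of the others. Without the 777 sites at a listed start and those on chromosome 18, which has no listed start, the share inside genes was 47.3% (45.6 to 49.1%). Counted the same way it was 44.6% (43.5 to 45.7%) for far peaks of POH1-Flag cells alone, with overlapping intervals, 39% for those of vector cells alone and 34% for far Flag peaks. Shared sites were also closer to genes, at a median of 14.7 kb from the nearest gene end (quartiles 4.80 and 44.8 kb), against 27.5, 48.8 and 69.3 kb in the other sets.

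**Figure D1:**
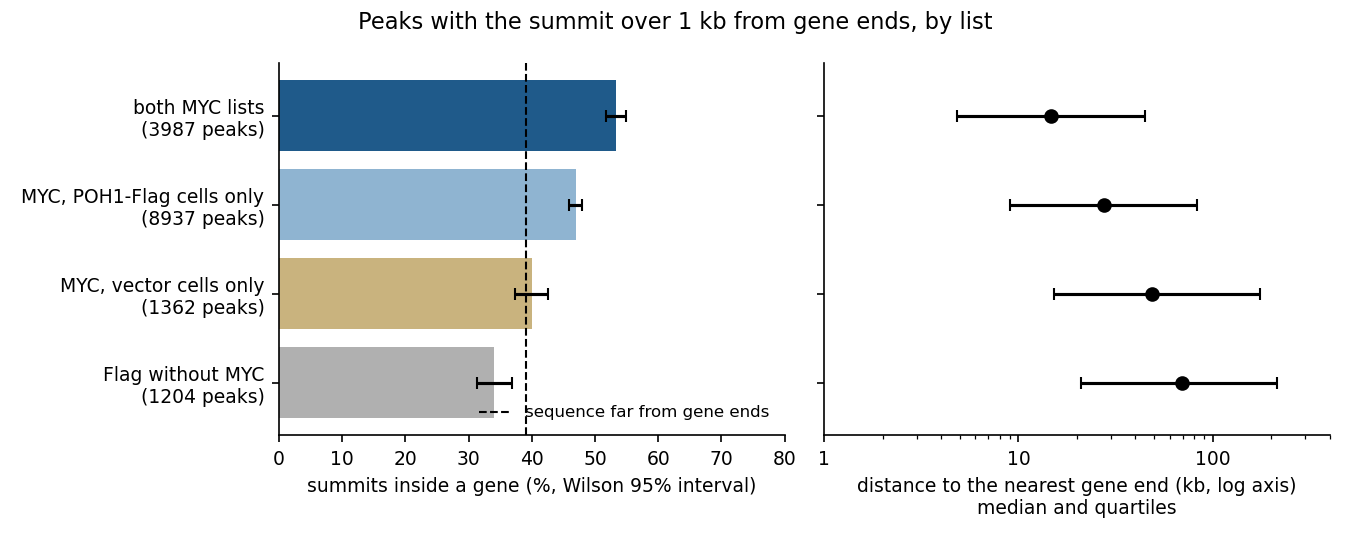
Left, share of summits inside a protein-coding gene for peaks over 1 kb from gene ends, by the lists that held them, with Wilson 95% intervals and a dashed line at the 39.1% of such sequence that lies inside genes. Right, median and quartiles of the distance to the nearest gene end in kb (log axis), lowest for peaks in both MYC lists at 14.7 kb.

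Within genes the summits lay toward the 5′ end. Of 1723 inside sites whose host gene has a strand in the table, 65.4% (63.1 to 67.6%) were nearer the 5′ end, and 38% fell in the first 25% of the gene length. Sites at inner starts carried part of this, since inside sites without a listed start within 1 kb were nearer the 5′ end in 55.4% (52.5 to 58.3%) with 26.3% in that stretch. Inside peaks of POH1-Flag cells alone were nearer the 5′ end in 57.4%. Intergenic sites were nearer the 5′ end of their nearest gene in 52.5% (49.9 to 55.1%).

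Peak strength moved with being shared. Far MYC peaks of POH1-Flag cells, Flag overlaps left out, met a vector peak in 4.95% of the 10% of peaks with the lowest of the authors' −log10 q, in 90.6% of the 10% with the highest, and in 30.8% over all. Shared sites had a median of 22 reads at the summit and a width of 594 bp, against 11 reads and 299 bp for far peaks of POH1-Flag cells alone. Shared sites near a gene end had 25 reads and 684 bp. Summits in both MYC lists lay a median of 74 bp apart, and at 2378 sites (59.6%) within 100 bp.

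MYC pileups were higher in POH1-Flag cells at most sites. The median was 14 reads in vector cells (quartiles 11 and 19) and 22 in POH1-Flag cells (16 and 29), and the lowest and highest were 6 and 104, and 5 and 124. Each library's genome-wide background at a base was 0.845 reads in vector cells and 0.826 in POH1-Flag cells, so division by it raised the ratio slightly. The read depth per kb given above runs the other way, and scaling by it gave lower ratios, listed in the last section. After division by the background at a base, the ratio of POH1-Flag to vector cells had a median of 1.5 (quartiles 1.24 and 1.82). It was above 1 at 3596 sites (90.2%), at least 1.5 at 2003 (50.2%) and at most 1/1.5 at 51 (1.28%). Over all 10010 shared MYC sites of any position 54.4% were at least 1.5 and 1.48% at most 1/1.5. The exact Poisson 95% interval lay above 1 at 698 sites (17.5%) and below 1 at 1 site, against 20% and 0.14% over all shared sites. Because the rule required a call in both lists, these values are a description.

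The reads around the sites moved with the summits. The local background in the lists, counted in a 10 kb window of the same library that can hold the site's own reads, had a median of 82 reads in vector cells and 133 in POH1-Flag cells and was higher in POH1-Flag cells at 91.2% of sites. With each pileup divided by its own local background the median ratio was 1.01, 2067 sites were above 1, and 5.09% were at least 1.5. Summits in POH1-Flag cells were thus higher in reads and near equal relative to their surroundings. Which of the scales follows MYC occupancy was not tested, and directions given below as higher or lower are of reads scaled by the genome-wide background unless the local background is named.

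**Figure D2:**
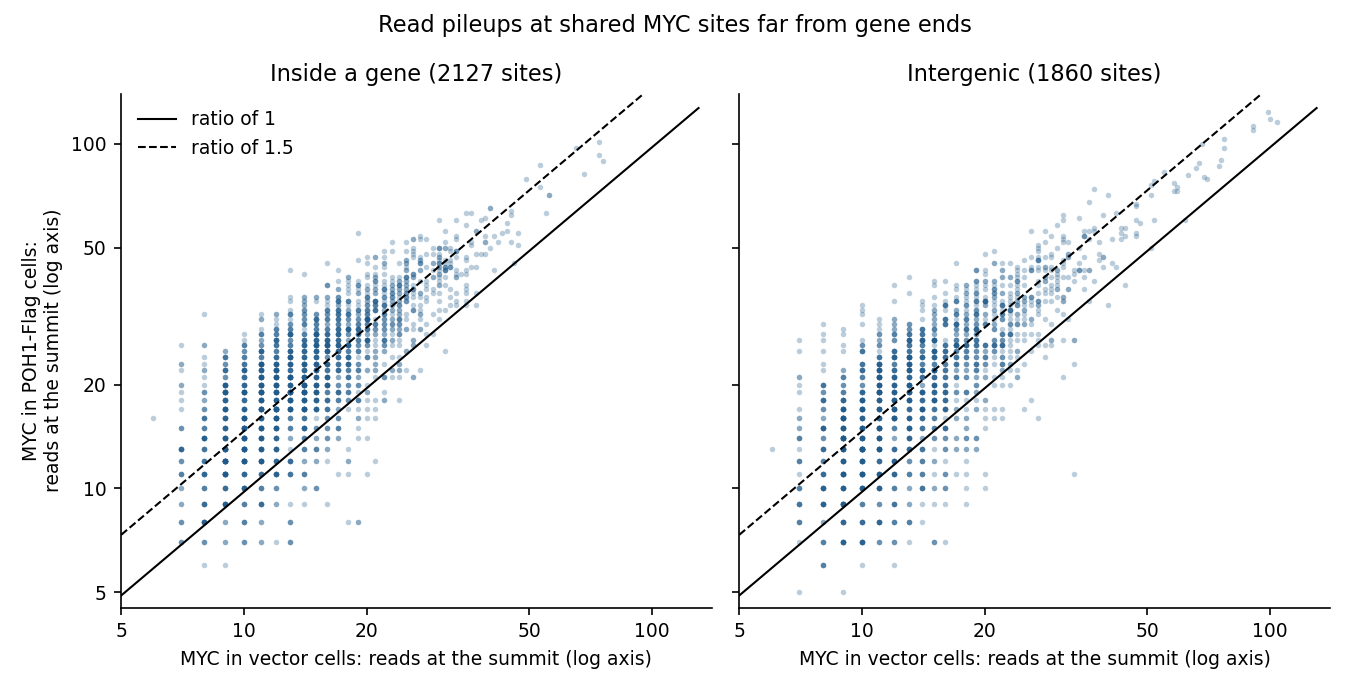
Reads at the summit in vector cells (x, log axis) and POH1-Flag cells (y, log axis) at the 2127 inside and 1860 intergenic sites, 1 point per site. The solid line is a scaled ratio of 1 and the dashed line 1.5, and most points of both kinds lie above the solid line.

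By position, medians of the ratio ranged from 1.59 at coding starts and 1.53 at lncRNA starts to 1.5 inside genes and 1.46 between genes without a listed start, an order that was lost on the local-background scale (0.999, 1.03, 1.01 and 1.01). All inside sites had a median of 1.53 and 52.9% at least 1.5, and all intergenic sites 1.47 and 47.2%. Shared sites near a gene end had 1.64 and 64.7%, and 1.04 on the local-background scale. In each of 4 groups of sites by summed reads the far sites were lower than the gene-end sites, at 1.33 against 1.49, 1.57 against 1.68, 1.63 against 1.71 and 1.55 against 1.61. The 447 sites over 100 kb from every gene end had the lowest median by distance, 1.30 (quartiles 0.977 and 1.70), and held 24 of the 51 sites with a ratio of at most 1/1.5. They were also low in reads, with medians of 12 in vector cells and 16 in POH1-Flag cells. The fall with distance was absent over the local background, where medians were 0.990 at 1 to 5 kb, 1.01 at 5 to 20 kb, 1.03 at 20 to 100 kb and 1.04 over 100 kb.

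**Figure D3:**
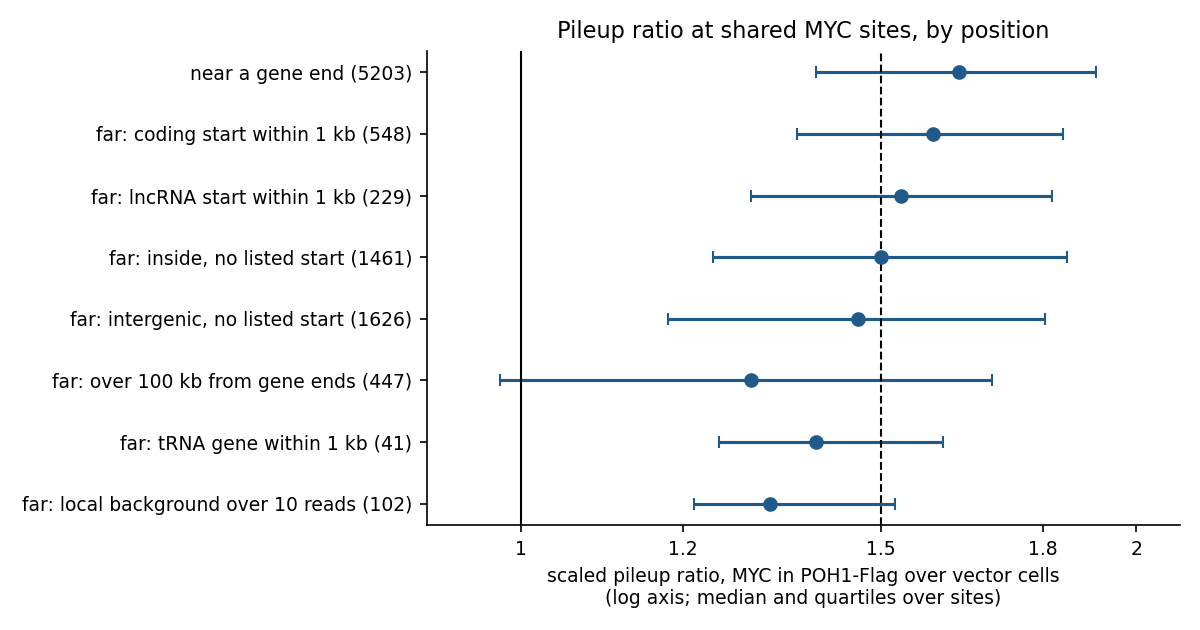
Median and quartiles over sites of the scaled pileup ratio, MYC in POH1-Flag over vector cells (log axis), for shared sites near a gene end and for classes of far sites, with their numbers. Lines mark 1 and 1.5, and the median falls from 1.64 near gene ends to 1.30 over 100 kb from them, while over the local background, not drawn, both medians are 1.04.

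Of the 10 strongest inside sites by the authors' −log10 q among MYC peaks of POH1-Flag cells, a ranking that leans to high pileups there, 4 lay at an inner start of the host gene and 2 at a lncRNA start. At Vps37b, which encodes a subunit of the ESCRT-I sorting complex, the summit on chromosome 5 at 124007197 lay 2.56 kb from the gene end and had 53 reads in vector cells and 87 in POH1-Flag cells, a ratio of 1.68 (1.18 to 2.41) and a −log10 q of 53.7. Ssc4d, a scavenger receptor gene, had 49 and 79 reads. Por, the gene of the electron donor of the cytochrome P450 enzymes, had 30 and 60 reads 2 bp from a lncRNA start, a ratio of 2.05 (1.30 to 3.29). The inner starts were those of Adh5 (40 and 65 reads at 217 bp), Aph1b, a gamma-secretase subunit gene (31 and 50 at 336 bp), Lrrfip1 (53 and 75 at 498 bp) and Add3, the gene of an actin-capping adducin (23 and 49 at 171 bp). Stard13, Dlgap1 and Gfod1 had 35 and 58, 31 and 56, and 38 and 60 reads, at 59.6, 92.4 and 42.7 kb from the gene ends. The ratio was at or below 1 relative to the local background at 4 of the 10.

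Of the strongest intergenic sites, ranked in the same way, 1 lay 31.4 kb from Ccnd1, the gene of cyclin D1, which drives entry into the cell cycle. It had 37 reads in vector cells and 74 in POH1-Flag cells, a ratio of 2.05 (1.36 to 3.12). The first by −log10 q, 34.0 kb from the forkhead gene Foxk1, had 55 and 83 reads, and the next, 23.1 kb from the kinase gene Rps6ka1, had 51 and 76. Srrm1, a splicing coactivator gene, had 40 and 71 reads 22.2 kb away, at a lncRNA start. Sites near Ccl20, a chemokine gene (43 and 55), and Mef2d, a MADS-box factor gene (58 and 77), had intervals that include 1. Ccnl1 (35 and 54), Zfp239 (34 and 61), Cep162 (29 and 48) and a site on chromosome 8 at 19784820 (42 and 63) completed the 10, with intervals above 1.

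Among sites with at least 40 reads in both MYC libraries together, the highest ratio was inside Fbln7, a fibulin gene, with 8 reads in vector cells and 32 in POH1-Flag cells (4.09, 1.85 to 10.3). Mki67, the gene of the proliferation marker Ki-67, was the nearest gene of a site 97.3 kb away with 10 and 34 reads (3.48), and an inner start of the kinase gene Taok2 had 13 and 43 (3.38). Enpp1 and Nfib followed with 10 and 33, and 12 and 39 reads. The lowest ratio was at an intergenic site on chromosome 17, 45852398, with 33 reads in vector cells and 11 in POH1-Flag cells (0.341, 0.156 to 0.692). It was the 1 site whose interval lay below 1. The next lowest, near Sox9 with 27 and 16 reads, Degs2 with 31 and 21, Apba2 with 25 and 17, and on chromosome 5 at 14959721 with 26 and 18, had intervals that include 1. The Sox9 ratio compares summits 907 bp apart. Its vector peak was also the partner of a neighbouring site with 40 reads in POH1-Flag cells, so it does not show a loss at 1 position.

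Assignment to the host or nearest gene gave 2891 genes, 13.4% of the 21631 protein-coding genes, and 711 of them had at least 2 sites. These genes were long, with a median of 37.8 kb against 17.3 kb for all genes, and hosts were longer (55.6 kb) than nearest genes of intergenic sites (25.5 kb). A MYC peak of POH1-Flag cells within 1 kb of an end was present at 45.9% of them (44.1 to 47.8%), at 41.7% of hosts and 51.5% of nearest genes, against 40.5% of all genes. Long genes and wide gaps between genes offer more room for a far site, and the counts below were not adjusted for that.

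Myc itself was the nearest gene of 8 intergenic sites, more than any other gene outside the stretch on chromosome 6 described further on. The gene lies on chromosome 15 from 61985341 to 61990361, and the sites lay 47.7 to 511 kb from its ends, 1 before the gene and 7 beyond it. Of the 7, 4 lay within Pvt1, the lncRNA gene beside Myc (62037986 to 62260215). The first of these 4, the site 47.7 kb from Myc, had its summit at 62038065, at the edge of Pvt1. Its nearest listed start was 263614 bp away, so no start of Pvt1 was listed there. From the site before the gene onward, vector cells had 12, 13, 18, 25, 10, 12, 23 and 13 reads, and POH1-Flag cells had 31, 22, 33, 23, 18, 24, 33 and 16. POH1-Flag cells were higher at all but the site 89.2 kb away, which had a ratio of 0.941 (0.511 to 1.73). Relative to the local background they were higher at 6 of the 8, with a median ratio of 1.08, against 2067 of all 3987 sites and 1.01. The largest ratio, 2.64 (1.32 to 5.65), was 376 kb before the gene, and 5 of the 8 were at least 1.5, against 50.2% of all sites. Intervals of 2 sites lay above 1, this one and the one 53.7 kb away (1.88, 1.03 to 3.54).

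**Figure D4:**
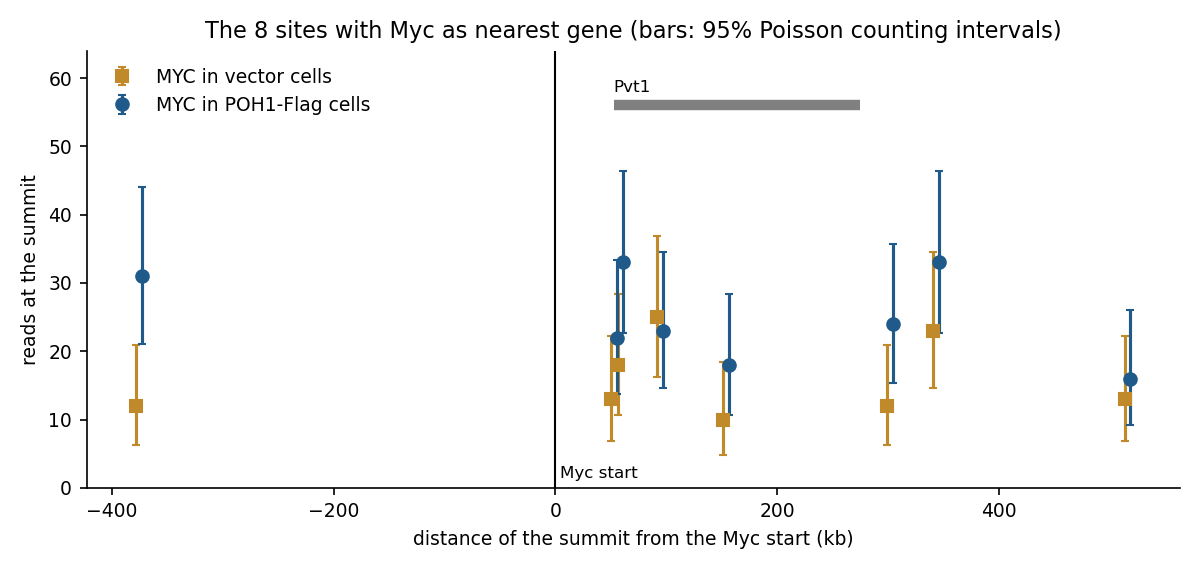
Reads at the summit in vector cells (squares) and POH1-Flag cells (circles), drawn slightly apart, against the distance from the Myc start in kb, with exact 95% Poisson counting intervals and the span of Pvt1 in grey. In 7 of the 8 sites the circle is the higher.

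The site nearest to Max lay 177 kb from that gene and had Fut8 as its nearest gene (13 and 23 reads), and the site nearest to Psmd14 lay 403 kb away, nearest to Tank (16 and 23 reads). Both intervals include 1.

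Other genes collected several sites. Their counts stand beside 50.2% of all sites at least 1.5 and 2067 of all 3987 above 1 relative to the local background. Chd2, a chromatin remodeller, had 7, of which 6 were at least 1.5, and 1 of them lay 255 bp from the start of the lncRNA gene Chaserr with 24 and 40 reads. Irf2bp2, an IRF2-binding corepressor gene, had 6 intergenic sites over 20.3 to 142 kb with 94 reads in vector cells and 164 in POH1-Flag cells in all. Each of the 6 was at least 1.5, and 4 of the 6 were above 1 relative to the local background. Nfib, a nuclear factor I gene, had 6 with 140 and 235 reads and ratios of 1.17 to 3.33, of which 3 were above 1 relative to the local background. Plec, the gene of the cytolinker plectin, had 6 sites in 17.3 kb of its body with 148 and 221 reads, of which 2 were above 1 relative to the local background. Maml3, a Notch coactivator gene, and Iqgap1, a scaffold of the cell cortex, had 6 each with 96 and 143, and 100 and 137 reads, and Slc39a11, a zinc transporter gene, had 7 with 110 and 157. Inside Tex14 lay 7 sites with 263 and 340 reads and ratios of 1.11 to 1.60, and near Olfr161 lay 6 with 176 and 212. Local background reached 15.0 reads at Tex14 and 10.3 at Olfr161, against a median of 2.69 over all sites.

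When summits up to 10 kb apart were joined, 3269 sites (82%) stood alone, 267 pairs formed, and 184 sites fell into 51 runs of at least 3. The stretches with most sites were a pair on chromosome 6 between 47655212 and 47778089, with 9 and 15 sites, a run of 6 over Msl1, Nr1d1 and Thra (165 and 225 reads), the Plec run of 6, and a run of 4 beside Eapp, an E2F-associated protein gene (152 and 239 reads). Without the 102 sites whose local background was over 10 reads, 117 sites were in runs.

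The 24 sites on chromosome 6 spanned 123 kb and began beside Rn4.5s, the gene of a small rodent RNA polymerase III transcript. Summits had 48 to 104 reads in vector cells and 59 to 124 in POH1-Flag cells, which include the highest pileups of all sites. The ratios ran from 1.14 to 1.53 with a median of 1.28, and 2 of the 24 were at least 1.5, against 50.2% of all sites. Relative to the local background the median was 0.908 and 3 of the 24 were above 1, against 2067 of all 3987 sites. Local background was 6.54 to 45.9 reads and over 10 at 23 of the 24. Of the 23 gaps between neighbouring summits 9 were 0.5 to 1 kb and 12 were 3.5 to 5 kb. Between the first and the last summit lay 2 Flag peaks, so the stretch was not free of Flag signal. Whether reads in this stretch map to 1 place was not tested.

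**Figure D5:**
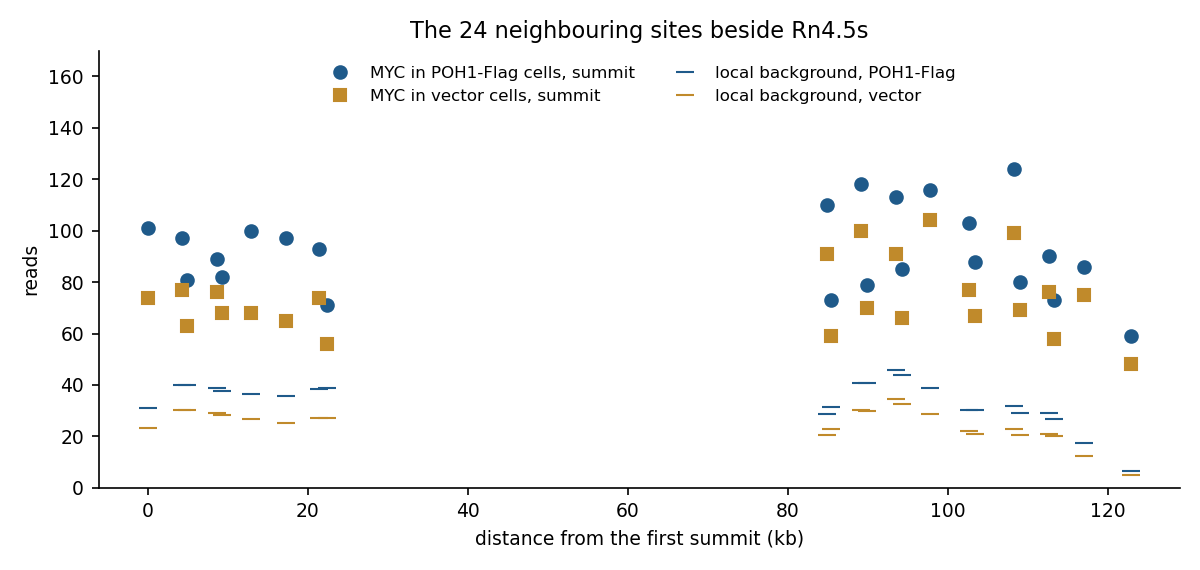
Reads at the summit (points) and local background (dashes) in both MYC libraries at the 24 neighbouring sites, against the distance from the first summit in kb. Background exceeds 10 reads at 23 of the 24 sites in POH1-Flag cells, and the circles are above the squares at each site.

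Genes of tRNAs lay within 1 kb of 41 sites, 39 of them intergenic. Vector cells had a median of 14 reads there and POH1-Flag cells 19, the median ratio was 1.40 (quartiles 1.25 and 1.61), and 17 sites (41.5%) were at least 1.5, against 50.2% of all sites. Relative to the local background 14 of the 41 were above 1, against 2067 of all 3987 sites. The 41 were 1.03% of the sites (0.759 to 1.39%), against 0.313% of far peaks of POH1-Flag cells alone, 0.294% of those of vector cells alone, 0 of 1204 far Flag peaks and 0.442% of shared sites near a gene end (0.295 to 0.662%). Of 408 tRNA genes 60 (14.7%) had such a site, 132 (32.4%) any MYC peak of POH1-Flag cells, 98 (24%) any vector MYC peak and 0 a Flag peak. Of 9 other polymerase III genes looked up 3 had a site, and 5 of the 6 without one had a MYC peak of POH1-Flag cells outside the rule. Rn7sk, whose RNA restrains the elongation factor P-TEFb, had 15 and 30 reads (ratio 2.05), Rny1, a Y RNA gene, had 15 and 22, and Rn4.5s had 74 and 101. These genes were chosen after their values were seen.

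Noncoding host genes of small nucleolar RNAs were among the lncRNA starts, where 7 of the 16 Snhg genes in the table had a site, against 226 of all 9533 lncRNA genes in it (2.37%). These were also picked after the values were seen. Snhg17 had 20 reads in vector cells and 48 in POH1-Flag cells, a ratio of 2.46 (1.43 to 4.37). Snhg5 had 20 and 35 reads (1.79, 1.01 to 3.27) and Snhg8 29 and 43 (1.52, 0.926 to 2.52). Snhg15, Snhg7, Snhg16 and Snhg3 had ratios of 1.31, 1.46, 1.19 and 1.36 with intervals that include 1. Mir22hg, the host of miR-22, had 35 and 54 reads, Dancr had 13 and 26, and Malat1, an abundant nuclear RNA, had 16 and 34 at 784 bp from a listed start. All 10 were higher in POH1-Flag cells in reads, against 90.2% of all sites and 95.6% of sites at lncRNA starts. Relative to the local background 4 of the 10 were higher, against 2067 of all 3987 sites. Jpx, an activator of Xist, had 16 and 17 reads.

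The genes beside the sites were described with 23 lists, which held 470 matched entries. Read against the 13.4% of all protein-coding genes with a site, the lists differed widely, and so did the room around their genes. AP-1 and ATF factor genes had a site at 8 of 15, with a median ratio of 1.88 over 11 sites. Fos, an AP-1 subunit, had 24 and 44 reads 18.5 kb away, Mafg 23 and 35 at 2.17 kb, and Fosl2 23 and 24. YAP, TEAD and target genes had one at 12 of 18, with Tead3 (30 and 48 reads), a TEAD factor gene, Axl, a receptor kinase gene (30 and 46), and Vgll4, a TEAD cofactor gene (14 and 28). All 18 sites of this list were above 1 and 12 at least 1.5, against 90.2% and 50.2% of all sites. Relative to the local background 7 of the 18 were above 1, against 7 of the 11 in the AP-1 list and 2067 of all 3987 sites. The median gene length was 8.24 kb in the first list and 47.8 kb in the second, against 17.3 kb for all genes.

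Genes of feedback on ERK, NF-kB and STAT signalling had a site at 12 of 24, with Bcl3 (26 and 47 reads), Ier3 (19 and 40) and an inner start of Nfkb2 (21 and 44), and all 3 intervals lay above 1. Glycolysis and glutamine genes had one at 14 of 24 and were led by Slc3a2, the heavy chain of amino acid transporters (36 and 51), and Hk1, a hexokinase (19 and 40). Cell cycle regulators had one at 11 of 26, with Ccne1, the gene of cyclin E1 (30 and 41), and Cdk6 (23 and 41) after Ccnd1. Actin and focal adhesion genes had one at 16 of 31, with Tns1 (25 and 46), Actb (21 and 40) and Lpp (25 and 36). The median gene length was 92.9 kb in this last list, against 17.3 kb for all genes. It was 11.8 kb in the feedback, 21.3 kb in the glycolysis and glutamine and 15 kb in the cell cycle list.

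Mesenchymal genes had a site at 12 of 24. The median gene length was 54.1 kb in this list, 78.1 kb for integrin and adhesion genes and 46.9 kb for growth factor genes and receptors. It was 70.7 kb for drivers, 92 kb for coactivators, 14.7 kb for epithelial and ductal genes and 17.3 kb for all genes. The strongest site of Snai1, a repressor of E-cadherin, had 22 and 37 reads, and that of Zeb2, 24 and 37 reads, was 1326 kb from the gene. The site closest to Zeb2, 566 kb away, had 16 reads in vector cells and 9 in POH1-Flag cells (0.576, 0.224 to 1.38). Epithelial and ductal genes had one at 7 of 19, with Sox9 (27 and 40 reads at 221 kb), Cdh1, the gene of E-cadherin (10 and 19, inside the gene), and Krt18 (9 and 16). These 3 sites were the only ones of the 11 in this list with a ratio of at least 1.5, and the list median was 1.34. The vector peak of this Sox9 site was also the partner of the low-ratio Sox9 site named above. Integrin and adhesion genes had one at 8 of 20, with Cav1, the caveolin gene (18 and 29), Ncam1 (19 and 30) and Cav2 (12 and 20). Growth factor genes and receptors had one at 9 of 27, with Lif (28 and 48), Vegfa (15 and 25) and Fgf2 (13 and 26). Pancreatic cancer drivers had one at 6 of 20, with the chromatin remodellers Arid1b (19 and 37) and Arid1a (15 and 28) and the receptor Tgfbr2 (7 and 22, ratio 3.22, 1.33 to 8.91). Coactivators and chromatin regulators had one at 10 of 25, with Med13l (21 and 45) and Hdac4 (27 and 43). The sites named for the lists are those of highest −log10 q in the POH1-Flag list, which favours that library. Over all 257 sites of the listed genes 239 were above 1 and 141 at least 1.5, and 137 were above 1 relative to the local background. Among all 3987 sites these counts were 3596 (90.2%), 2003 (50.2%) and 2067. Sites of the listed genes that went the other way included 1 inside Zmiz1, a coactivator gene (31 and 25 reads), and an inner start of Slc7a11, a cystine transporter gene (19 and 8), which were picked after their values were seen. Zmiz1 had 4 sites, and 3 of them were at least 1.5.

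Genes of the MYC network had a site at 4 of 13. Inside Mnt, whose product competes with MYC for MAX, the summit had 40 reads in vector cells and 65 in POH1-Flag cells (1.66, 1.10 to 2.53). Mxi1, of the MXD family, had 14 and 31 reads 46 bp from an inner start (2.27, 1.17 to 4.61). Targets of p53 had a site at 9 of 24, with Mdm2, the ubiquitin ligase gene of p53 (23 and 36), Sesn1 (8 and 19) and Ccng1 (11 and 19).

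Classes known for MYC at their promoters were read against the same 13.4% of all genes. Ribosome biogenesis genes had a site at 3 of 30 (10%), while 29 of 30 had a MYC peak of POH1-Flag cells near an end, and proteasome genes at 2 of 37 (5.41%), with 32 near an end. The 3 were Bop1 (31 and 52 reads), Npm1 (28 and 28, a ratio of 1.02) and Ubtf (17 and 23), and the 2 were inner starts of Psma3 (30 and 33) and Psma6 (11 and 19). At Npm1 the summits of the MYC lists lay 941 bp apart, so its reads are not from the same position. Ribosomal protein genes had a site at 8 of 44 (18.2%) with 40 near an end, led by Rpl12 (31 and 62), Rps24 (13 and 41) and Rpl19 (26 and 38). These 44 genes were short, with a median of 3.25 kb. The median territory, the room a gene has for a site, was 14.3 kb for them, 35.6 kb for ribosome biogenesis and 26.3 kb for proteasome genes. Over all genes it was 50.5 kb, and the shares were not adjusted for it.

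In marker lists of other cell types, acinar (0 of 10), endocrine (0 of 8) and macrophage genes (0 of 8) had no site. Ductal markers were counted with the epithelial genes, at 7 of 19. Only 13.4% of all genes had a site, so 0 in lists this short is little information. Acinar and endocrine genes were also short, with medians of 6.86 and 4.76 kb, and macrophage genes had 40.7 kb. Fibroblast markers had 1 of 10 (Col1a1, 8 and 17 reads), T cell markers 1 of 6 (Cd28, 12 and 11) and neuronal markers 3 of 7 (among them Tubb3, 34 and 43, and Syt1, 9 and 16), with genes of a median length of 267 kb. Peaks do not measure expression, so these counts do not show which cell types were present.

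Values on both sides of the 1 kb limit were close. The 54 sites within 100 bp beyond the limit had medians of 16.5 and 24 reads and a ratio of 1.51. The 73 shared peaks within 100 bp below it, just outside the rule, had 18 and 28 reads and 1.47.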

How the data were processed

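CUT&Tag peak lists of 3 Pan02 libraries were used. Per the submitters' processing notes, the tools were MACS2 2.2.7.1, BWA 0.7.17-r1188, FastQC 0.11.9 and Trim Galore 0.6.6, on build GRCm38. The notes list neither roles nor parameters, and a control library or duplicate handling is not given in the sources used here. The authors' fold enrichment is a linear ratio at each summit, the deposited −log10 p and −log10 q are for the same base, and the deposited score repeats the −log10 q, multiplied by 10 and truncated. Whole read pileups were solved from the fold and −log10 p (100% of peaks, within 0.01 of a read), and each library's lowest background scaled them. Pileups of 14 and 22 reads give wide counting intervals, and kept PCR duplicates would make them too narrow. Shares have Wilson intervals. "Called" means a ratio of at least 1.5 or at most 1/1.5. No test was possible between single libraries.

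The 3987 sites, lists and rules were chosen with earlier results of these data known. Named were the 10 strongest inside and 10 strongest intergenic sites, the 10 genes and 5 runs with most sites, 3 genes per list, the 5 highest and lowest ratios (at least 40 reads) and the sites nearest Myc, Max and Psmd14. Predicted genes are given as positions where possible. Some genes that the rule took are not reported here. Genes and starts came from RefSeq tables of GRCm38.p6 (21631 protein-coding genes on these chromosomes and 32851 starts), and 123 sites on chromosome 18 were not compared with starts. The planned motif search of summits was replaced by listed windows, since no genome was used here. Alternatives were stricter thresholds, overlaps and distances, other scalings and other gaps, and the steps were tested on simulated data. Python 3.11.15, pandas 2.3.3, numpy 2.4.6, scipy 1.17.1 and matplotlib 3.10.9 were used.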

Additional observations from a re-analysis of the deposited data

How the results depend on the processing

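The 8 summary results were recomputed under 20 alternatives, not each for every result, which gave 81 values. Of these 44 stayed within their counting interval or, for counts, within 1.5 times, 37 moved and none reversed. The causes of these moves were not tested beyond what each alternative leaves out. At a −log10 q of at least 5 in both lists 2035 sites remained, with 55.1% inside genes, a median ratio of 1.49, 48.3% at least 1.5, a median distance of 12.5 kb, 55 sites in runs and 99 list genes in place of 154. At 10 these were 499, 57.1%, 1.42, 37.9%, 10.03 kb, 14 and 35. With 50% overlap 103 sites were in runs. Over 2 kb from gene ends 50.5% were inside genes, 18.7 kb away. Over 5 kb these were 47.6% and 25 kb, with 48.7% at least 1.5. Over 1 kb from genes of any type 55.9% were inside. The median ratio and share of at least 1.5 were 1.47 and 48.6% unscaled, 1.38 and 39.3% scaled by background reads per kb, 1.01 and 5.09% over the local background, and 1.60 and 60.4% in the taller 50% of sites. With gaps of 5 and 25 kb, 41 and 464 sites were in runs. Far POH1-Flag peaks met a vector peak in 51.8% and 82.7% at −log10 q of at least 5 and 10. Alternatives chosen after seeing the data gave 117 sites in runs without local backgrounds over 10 reads, and 1.48, 48.5% and 47.3% inside for sites without a listed start.

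Of 149 named sites 137 were above 1, and 45 of these were at or below 1 over the local background, while 2 of the other 12 were above it there. Counting only the 100 named sites with a ratio of at least 1.5 or at most 1/1.5, 16 reversed over the local background, to 0.998 at Vps37b, 0.980 at Ssc4d, 0.992 at Por, 0.901 and 0.962 at Plec, 0.929 and 0.911 near Irf2bp2, 0.954 and 0.820 at Iqgap1, 0.929 at Mafg, 0.939 at Tead3, 0.893 at Axl, 0.953 at Vgll4, 0.996 at Snai1, 0.954 near Ncam1 and 0.930 near Cdk6. No paired analysis was possible because each group had 1 library, and no library could be left out. At a median of 14 reads in vector cells, most single-site ratios were within counting error.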
